A study of Mus musculus with 24 samples.

Results

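CD8 T cells from the blood of older KC mice were set against those of younger KC mice. The older group held the libraries of 20 weeks (Sample_205B8) and 30 weeks (Sample_302B8 and Sample_303B8), and the younger group those of 4 weeks (Sample_42B8 and Sample_43B8) and 9 weeks (Sample_95B8). These 6 libraries, chosen by the tissue and age in their labels, are 6 of the 24 in the series. KC is the usual name of a mouse model of early pancreatic cancer, whose pancreas gains preinvasive lesions as the mice grow older. The labels give only the name KC, no alleles, and no treatment. Both groups were KC, so age and the growth of lesions cannot be told apart. The 1 WT blood library, of 30 weeks, gives no younger control. Cells positive for CD45, CD3 and CD8 had been sorted and their total RNA sequenced. The labels do not state how many animals made up a library, their sex or a batch, nor that libraries came from separate animals, so p-values measure the spread between these libraries, which may in part be technical.

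Most CD8 T cells in blood are naive cells that have left the thymus and move between blood and lymph nodes. They are marked by the transcription factors TCF-1 (Tcf7) and LEF1, the homing receptor CCR7 and the IL-7 receptor. Cells that have met antigen, and virtual memory cells that form without it and gather with age, carry more CD44, IL-2 receptor beta and IL-18 receptor, and effector cells make granzymes, perforin and chemokines such as CCL5. RNA of a sorted population is a sum over its cells, so fewer cells of a kind and less RNA per cell cannot be told apart.

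The age classes differed in few genes that passed the test and in none that rose. Levels are given as CPM, the usual scaling of a gene's count by the total counts in genes of its library. In all, 8 of 8760 genes tested were lower at 20 to 30 weeks, 0.0913% of those tested, and 0 were higher (0%), by edgeR's quasi-likelihood test at a Benjamini-Hochberg adjusted p under 0.05. The 8 genes were Khk, Rpn1, Adam22, Fdft1, Sirt7, Lmf2, Mea1 and H2afj. At an unadjusted p under 0.05 there were 772 genes, 614 lower and 158 higher. The biological coefficient of variation, edgeR's measure of spread between replicates relative to the mean, was 1.10. The median log2 fold change of all genes was -0.09, with 4185 genes above 0 and 4575 below. Genes whose 3 older libraries all lay below the 3 younger ones in CPM made up 2.47% (216 genes), and those with all 3 above made up 5.35% (469 genes). Full separation of 3 against 3 has p = 0.1 in an exact two-sided permutation test, so neither share is read as a result. These shares use CPM without the further scaling of the fits (TMM, below), so their directions need not match those of the fits.

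The libraries themselves differed between the groups, and these values stand beside each result. Counts in genes ran from 7186520 to 11156578 per library. The younger libraries Sample_42B8 and Sample_43B8 had 4146 and 4499 genes at 10 CPM or more, against 7586 in Sample_95B8 and 5591 to 6354 in the older ones. The scaling factor of edgeR (TMM) was 0.577 and 0.709 in Sample_42B8 and Sample_43B8, against 1.44 in Sample_95B8 and 1.01 to 1.35 in the older libraries, so a count in the first pair is weighted up against the same CPM elsewhere. Libraries of the series were also split into 2 sets of 12 by traces, that is, low counts of genes that are high in 1 library only. A library held a count of one of the 102 such genes in 92.7% of cases where the source was in its own set, and in 46.9% otherwise. The sets were drawn from these same counts, so the shares describe the split and do not test it. Sample_42B8 and Sample_43B8 belonged to set 1, and Sample_95B8 and the 3 older libraries to set 2, so that set and age can be told apart only through Sample_95B8. Xist, transcribed from the inactive X chromosome of females, was at 3312, 8369.5 and 4679 CPM in Sample_42B8, Sample_43B8 and Sample_302B8, and at 39.96 to 73.9 CPM in the other three. Correlations of log2(CPM + 1) over 6998 genes, which are not independent replicates, ran from 0.518 to 0.772 between the 6 libraries, with a median of 0.608.

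**Figure D1:**
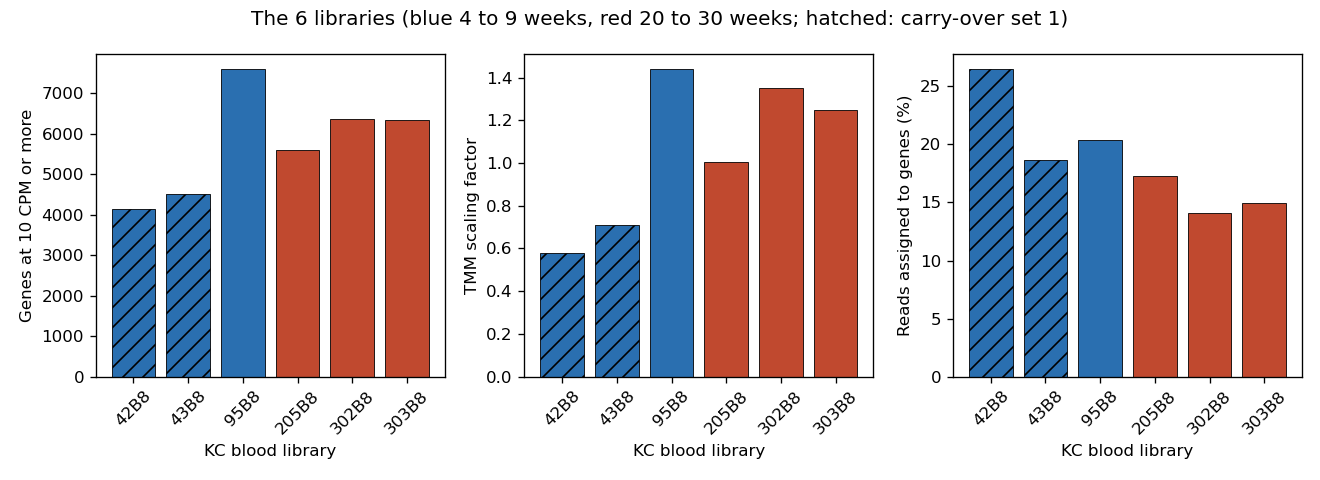
Bars give, for each of the 6 libraries, the number of genes at 10 CPM or more, the TMM scaling factor and the percent of tallied reads assigned to genes (blue 4 to 9 weeks, red 20 to 30 weeks, hatched for set 1). Sample_42B8 and Sample_43B8 have the fewest genes at 10 CPM or more (4146 and 4499) and the lowest scaling factors, while Sample_95B8 (7586 genes) has more than any older library.

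The sorted identity held in all 6 libraries. Cd3e, a chain of the T cell receptor complex, was at 9446, 5248 and 3801 CPM in Sample_42B8, Sample_43B8 and Sample_95B8 and at 6181, 3791 and 5101 CPM in Sample_205B8, Sample_302B8 and Sample_303B8. Cd8b1, the beta chain of the CD8 coreceptor, was at 844 to 1250 CPM at 4 to 9 weeks and at 714 to 762 CPM at 20 to 30 weeks. Cd4, the coreceptor of helper T cells, was at 20.1 to 37.1 CPM in the 6 libraries.

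Rpn1, which encodes a subunit of the oligosaccharyltransferase that adds sugar chains to new proteins in the endoplasmic reticulum (chromosome 6, 88084482 to 88105304, mm10), was at 779.9, 285 and 40.2 CPM in Sample_42B8, Sample_43B8 and Sample_95B8. The older libraries Sample_205B8, Sample_302B8 and Sample_303B8 held 8.30, 27.1 and 16.98 CPM, each below every younger one, though Sample_302B8 lies close to Sample_95B8. The log2 fold change was -5.40 ± 1.06 (SE, adjusted p = 0.00600, edgeR). At 13 weeks the 3 libraries held 3.76, 92.6 and 93.0 CPM, and the WT library of 30 weeks held 74.6 CPM.

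Fdft1 encodes squalene synthase, the enzyme at the first committed step of sterol synthesis, and it lies on chromosome 14 (63145150 to 63179578, mm10). It was at 160.0, 198 and 50.9 CPM at 4 to 9 weeks and at 0.237, 0.662 and 3.62 CPM at 20 to 30 weeks. Every younger library was far above every older one. The log2 fold change was -7.33 ± 1.54 (SE, adjusted p = 0.0138, edgeR). The 13-week libraries held 3.26, 5.54 and 77.2 CPM and the WT library 6.82 CPM, so the low level was not limited to the older KC libraries.

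Sirt7, a nuclear deacylase known for its part in ribosomal gene transcription and DNA repair (chromosome 11, 120618372 to 120625240), was at 335, 194 and 22.2 CPM in the younger libraries and at 1.78, 10.9 and 3.48 CPM in the older ones. The groups did not overlap, and Sample_95B8 was the nearest younger library. Its log2 fold change was -6.10 ± 1.30 (SE, adjusted p = 0.0150, edgeR). The libraries of 13 weeks held 96.8, 27.8 and 93.4 CPM, each inside the younger range, and the WT library held 43.5 CPM.

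Rpn1 and Sirt7 are the called genes with at least 20 CPM in every younger library that have an entry in the RefSeq promoter table (build GRCm38.p6), where 6 of the 8 called genes matched. They were chosen after their values were seen, and their promoters, from 250 bases before to 50 after the annotated start, are printed to show what sequence heads the 2 genes. Rpn1 starts on the plus strand (chr6:88084223-88084522) and Sirt7 on the minus strand (chr11:120624965-120625264, printed in the direction of the gene). Capitals mark matches on either strand to CCAAT (the CCAAT box), GGGCGG (the GC box), CACGTG (an E-box) or CCGGAAG (an ETS-type site). No 2 of these motifs overlap here.
Rpn1: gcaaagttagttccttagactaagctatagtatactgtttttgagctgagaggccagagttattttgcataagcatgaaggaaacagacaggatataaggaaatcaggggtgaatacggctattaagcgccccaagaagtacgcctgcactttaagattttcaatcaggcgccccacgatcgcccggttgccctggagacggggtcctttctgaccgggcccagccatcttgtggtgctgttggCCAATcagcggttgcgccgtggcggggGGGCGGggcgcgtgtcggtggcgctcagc
Sirt7: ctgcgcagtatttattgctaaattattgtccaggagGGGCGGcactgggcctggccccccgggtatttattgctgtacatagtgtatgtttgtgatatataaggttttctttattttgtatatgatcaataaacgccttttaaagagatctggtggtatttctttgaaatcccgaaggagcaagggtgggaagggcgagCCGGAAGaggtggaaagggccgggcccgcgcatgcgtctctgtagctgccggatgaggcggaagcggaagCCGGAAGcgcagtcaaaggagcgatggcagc
The Rpn1 window, 54.7% G or C, held 1 CCAAT box and 1 GC box, and the Sirt7 window, 51.3% G or C, held 1 GC box and 2 matches to CCGGAAG. Of all 32851 promoters in the table, 37.4% held CCAAT, 35.7% GGGCGG, 7.15% CACGTG and 8.86% CCGGAAG. Each match is a description of letters and not a site of binding.

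Khk, the ketohexokinase that phosphorylates fructose, was high in 1 younger library (chromosome 5, 30921431 to 30931248). It was at 289 CPM in Sample_42B8 and at 1.23 and 8.60 CPM in Sample_43B8 and Sample_95B8, against 0, 0.132 and 0.139 CPM in the older libraries. The older libraries held 2 counts in all, against 3282 in the younger ones, a ratio of 1193 with a 95% exact interval of 330 to 9855 for counting error alone. The adjusted p was 0.00600 (edgeR), with a fitted log2 fold change of -10.96 that leans on those few counts.

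Adam22, a surface protein of the ADAM family without protease activity (chromosome 5, 8072352 to 8368160), was at 191, 187 and 10.2 CPM at 4 to 9 weeks and at 1.19, 1.06 and 0.417 CPM at 20 to 30 weeks. The groups did not overlap, and both 4-week libraries stood well above Sample_95B8. The log2 fold change was -8.00 ± 1.59 (SE, adjusted p = 0.00600, edgeR). Among the 13-week libraries, Sample_131B8 held 296 CPM, and Sample_132B8 and Sample_133B8 held 8.53 and 0.232 CPM, so the gene varied as widely within that age as between the age classes.

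Mea1, a gene named for a male-enhanced antigen (chromosome 17, 46678793 to 46683111), was at 182, 66.0 and 4.21 CPM in the younger libraries and at 0.237, 1.32 and 0.278 CPM in the older ones, with no overlap and a log2 fold change of -8.10 ± 1.79 (SE, adjusted p = 0.0205, edgeR). Lmf2, related to the lipase maturation factor of the endoplasmic reticulum (chromosome 15, 89351004 to 89355659), was at 466 CPM in Sample_43B8 but at 1.73 in Sample_42B8 and 18.6 in Sample_95B8, against 1.54, 0.132 and 0.417 CPM in the older libraries (log2 fold change -8.41 ± 1.74, SE, adjusted p = 0.0205, edgeR). Sample_42B8 and Sample_205B8 are thus almost level for Lmf2. H2afj, a variant of histone H2A (chromosome 6, 136808244 to 136810074), was at 1.36, 355 and 17.5 CPM at 4 to 9 weeks and at 0.593, 0.662 and 1.95 CPM at 20 to 30 weeks (log2 fold change -7.59 ± 1.68, SE, adjusted p = 0.0217, edgeR). For H2afj the groups overlapped, since Sample_303B8 lay above Sample_42B8.

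**Figure D2:**
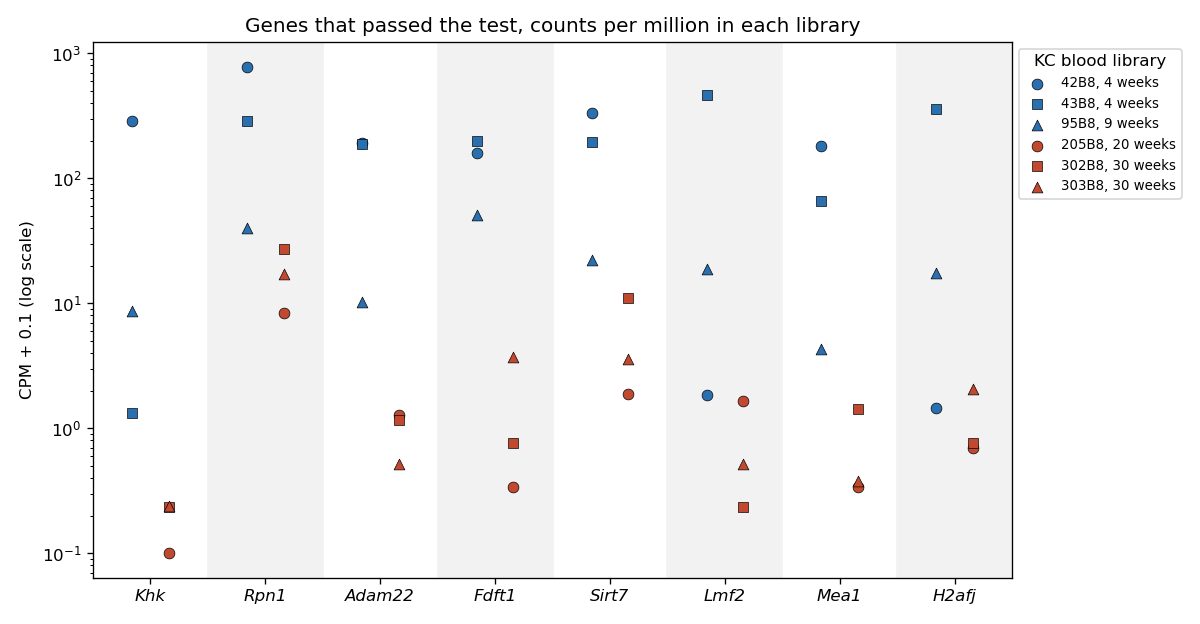
Points give CPM + 0.1 on a log axis for the 8 called genes in each library (blue 4 to 9 weeks, red 20 to 30 weeks, 1 symbol a library). The highest point is Sample_42B8 or Sample_43B8 for every gene, and for H2afj the blue and red points overlap.

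The highest of the 6 libraries was Sample_42B8 for 5 of the 8 called genes and Sample_43B8 for 3. Of the 614 genes lower at an unadjusted p under 0.05, 367 were highest in Sample_42B8, 232 in Sample_43B8 and 15 in Sample_95B8. Among all 8760 genes tested, 15.3% were highest in Sample_42B8, 15.1% in Sample_43B8 and 17.4% in Sample_95B8. Genes picked as lower in the older group will tend to peak in a younger library. Without Sample_95B8 the count of called genes was 0, without Sample_42B8 67 and without Sample_43B8 150. Compared within set 2 (Sample_95B8 against the 3 older libraries), the log2 fold changes of the 8 genes were still negative, from -0.88 for Rpn1 to -6.08 for Khk. With 1 younger library, the spread in that fit comes from the 3 older ones alone, so its lack of calls (0 of 11631 tested) says nothing for or against the 8 genes. In the edgeR fit with a term for high Xist (1000 CPM or more), every gene tested had an adjusted p of 1. That value thus says nothing about any single gene. Where adjusted p-values of alternatives are quoted below, the lowest of that gene is among those given. The part of trace set, of the number of genes detected and of sex in the 8 calls was not tested beyond these values.

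No gene passed in the upward direction. The 8 genes described here are those with the smallest p-values among genes whose 3 older libraries all lay above the younger ones and held at least 10 CPM each. Higher genes with an adjusted p under 0.1 numbered 4 and did not meet that limit. The 8 had adjusted p-values of 0.153 to 0.386 (edgeR). Hiat1, a transporter-like membrane protein, was at 3.18, 15.1 and 126 CPM in Sample_42B8, Sample_43B8 and Sample_95B8 and at 691, 440.0 and 272 CPM in Sample_205B8, Sample_302B8 and Sample_303B8. The groups did not overlap, and Sample_95B8 was the nearest younger library. Its log2 fold change was 3.42 ± 1.02 (SE, adjusted p = 0.153, edgeR), and 2.35 within set 2.

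Rmi1, a part of the complex with the BLM helicase that resolves crossed DNA strands, was at 1.27, 4.53 and 82.9 CPM in the younger libraries and at 505, 236 and 133.2 CPM in the older ones (log2 fold change 3.55 ± 1.16, SE, adjusted p = 0.232, edgeR). Rnf138, a ubiquitin ligase with a role in DNA repair, was at 13.4, 49.0 and 57.7 CPM against 743, 185 and 98.4 CPM (log2 fold change 2.85 ± 1.03, SE, adjusted p = 0.324, edgeR). In both genes Sample_205B8 was the highest library and Sample_42B8 the lowest. Tram2, Pkp4, Rslcan18, 1700012D14Rik and 4930515G01Rik made up the rest of the group, at log2 fold changes of 3.92 to 6.80. Under DESeq2, Tram2 (adjusted p = 0.0326), Rslcan18 (0.0115), 1700012D14Rik (0.000304) and 4930515G01Rik (0.00681) passed, and with library size alone as scaling Hiat1 did in edgeR (adjusted p = 0.0440).

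**Figure D3:**
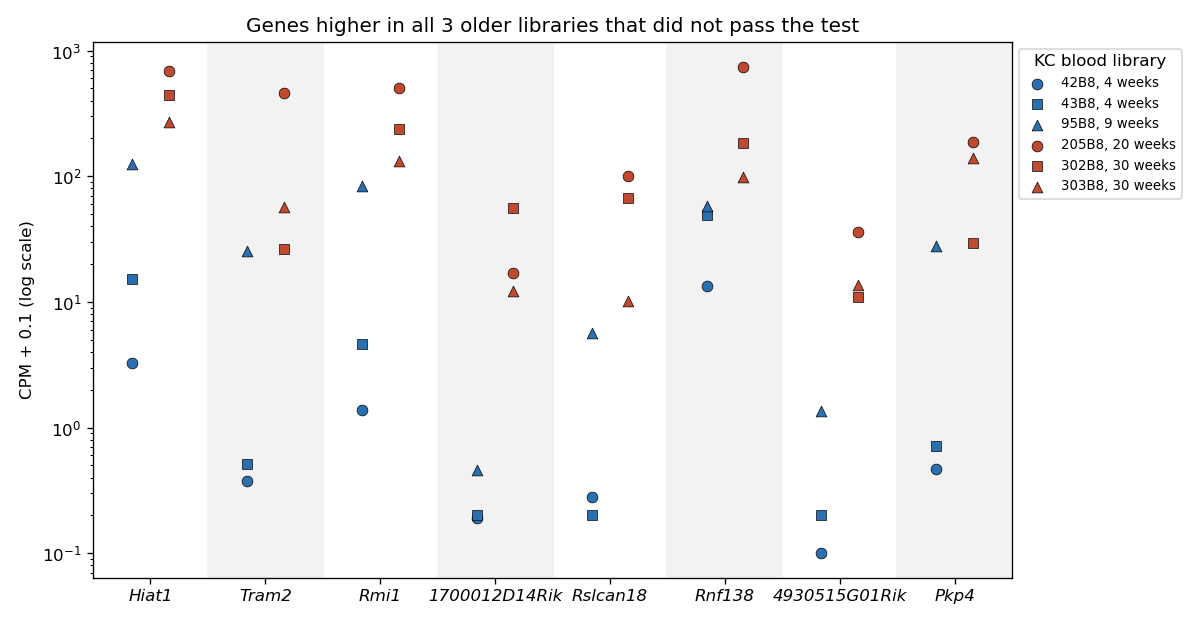
Points give CPM + 0.1 on a log axis for the 8 genes with the smallest p-values, none passing, among those with no overlap and at least 10 CPM in every older library (blue 4 to 9 weeks, red 20 to 30 weeks, 1 symbol a library). Red points lie above all blue points for each gene, and Sample_95B8 is the highest younger library throughout.

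Genes of naive cells gave no common direction. Of 29 list members tested, 12 were higher and 17 lower, with 0 called and a median log2 fold change of -0.34 against -0.09 for all genes. The groups did not overlap for 3 members, 1 lower (Mgst2) and 2 higher, against 2.47% and 5.35% of all genes tested. Mgst2, a glutathione S-transferase of membranes, was at 56.9, 30.8 and 18.7 CPM against 5.69, 4.90 and 9.18 CPM (log2 fold change -3.21 ± 1.64, SE, adjusted p = 0.573, edgeR). The list's sign turned positive with library size alone (0.27) and within set 2 (0.37). The medians of all genes were also positive there, at 0.28 and 0.21. Tcf7 was at 692, 386 and 1272 CPM in Sample_42B8, Sample_43B8 and Sample_95B8 and at 1228, 968 and 779.5 CPM in Sample_205B8, Sample_302B8 and Sample_303B8, with a log2 fold change of -0.04 ± 0.73 (SE, adjusted p = 0.994, edgeR). Older values of Tcf7 fell inside the younger range.

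Ccr9, a gut-homing chemokine receptor of recent thymic emigrants, was at 1657, 699.7 and 320.0 CPM at 4 to 9 weeks and at 85.2, 371 and 282 CPM at 20 to 30 weeks. Its log2 fold change was -2.80 ± 0.81 (SE, adjusted p = 0.131, edgeR), and -0.07 within set 2, where Sample_95B8 lay inside the older range. Lef1, Ccr7, Il7r and Satb1 had log2 fold changes of -0.50 to -0.38, with adjusted p-values of 0.889 to 0.924 (edgeR). With library size alone Lef1, Il7r and Satb1 turned positive (0.11, 0.28 and 0.09), and Ccr7 stayed negative (-0.13). Within set 2 the same genes were at 0.42, 0.99 and 0.25, and Ccr7 at -0.24. Summed over the naive list, the younger libraries held 11838 to 12491 CPM and the older ones 12283 to 13147 CPM, with overlap.

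Genes of memory cells gave mixed values. Il18r1, a chain of the IL-18 receptor, was at 28.5, 98.6 and 149 CPM in the younger libraries and at 311, 590.0 and 365 CPM in the older ones. Every older library stood above every younger one. The log2 fold change was 1.83 ± 0.93 (SE, adjusted p = 0.570, edgeR), positive in 18 of 18 alternatives and 1.86 within set 2, and no alternative passed the test.

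Il2rb, the beta chain shared by the IL-2 and IL-15 receptors, was at 20.1, 12.6 and 208 CPM at 4 to 9 weeks and at 156, 254 and 203.7 CPM at 20 to 30 weeks (log2 fold change 1.35 ± 1.10, SE, adjusted p = 0.790, edgeR). Here Sample_95B8 was level with the older libraries, and the 4-week pair was low. Eomes, a transcription factor of memory and effector cells, was at 5.73, 219 and 35.4 CPM against 1.90, 22.6 and 26.4 CPM (log2 fold change -3.11 ± 1.43, SE, adjusted p = 0.515, edgeR), with Sample_43B8 alone high. Prdm1, which encodes BLIMP-1, was at 272 CPM in Sample_302B8 and at 0.720 to 12.7 CPM in the other 5 libraries. BLIMP-1 is also a factor of plasma cells. The summed level of 5 plasma cell markers was highest in the same library, at 325 CPM, but Prdm1 itself made up 272 CPM of that sum. Sample_205B8 held 127 CPM of the sum with 1.07 CPM of Prdm1, so the other markers did not peak with Prdm1. A link was not tested.

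Summed over the 30 genes of the central and virtual memory list, the younger libraries held 2749 to 3663 CPM and the older ones 3692 to 5036 CPM, without overlap and with a narrow gap. The 13-week libraries held 3188 to 3594 CPM and the WT library of 30 weeks 3071 CPM. Per gene, 14 of 26 tested were higher and 12 lower, with 0 called and a median log2 fold change of 0.09. That median was -0.07 under RLE scaling and -0.37 to 0.48 when 1 library was left out.

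Cytotoxic genes did not move as 1 group. Of 24 tested members, 13 were higher and 11 lower, with 0 called and a median log2 fold change of 0.27, and 6 had an unadjusted p under 0.05, each lower. With genes of a mean of at least 10 CPM alone, the median was -0.79, and it ran from -1.01 to 0.40 when 1 library was left out. Nkg7, a protein of cytotoxic granules, was at 1094, 155 and 184 CPM in the younger libraries and at 127, 36.3 and 65.0 CPM in the older ones, which did not overlap. The log2 fold change was -3.45 ± 0.92 (SE, adjusted p = 0.0868, edgeR), and -1.36 without Sample_42B8, the highest library. Nkg7 passed without Sample_43B8 (adjusted p = 0.00594) and with no filter on low counts (0.0351), both in edgeR.

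Gzma, which encodes granzyme A, was at 377, 54.9 and 25.9 CPM at 4 to 9 weeks and at 22.5, 16.8 and 25.0 CPM at 20 to 30 weeks. The older libraries lay just below Sample_95B8, and Sample_42B8 far above. Its log2 fold change was -3.76 ± 1.19 (SE, adjusted p = 0.194, edgeR), and 0.14 within set 2. Without Sample_43B8 it passed (adjusted p = 0.0140, edgeR).

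Gzmb, granzyme B, went the other way in one library: it was at 39.5, 158 and 36.1 CPM in the younger group and at 602, 30.7 and 81.5 CPM in Sample_205B8, Sample_302B8 and Sample_303B8 (log2 fold change 1.12 ± 1.03, SE, adjusted p = 0.819, edgeR). Ccl5, a chemokine of memory and effector cells, was at 389, 1684 and 73.1 CPM against 367, 230.0 and 89.2 CPM, with full overlap (log2 fold change -2.35 ± 0.88, SE, adjusted p = 0.354, edgeR). S100a4, a calcium-binding protein of activated and memory T cells, was at 177, 3.19 and 16.7 CPM against 0.356, 0.662 and 2.09 CPM, without overlap (log2 fold change -6.98 ± 1.80, SE, adjusted p = 0.0748, edgeR). It passed without Sample_43B8 (adjusted p = 0.000563) and with no filter on low counts (0.0169).

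Killer lectin-like receptors, which bind MHC class I and stress ligands on target cells, had the highest median of the T cell lists under TMM scaling. Of the 7 tested of 19, 5 were higher and 2 lower, 0 were called, and the median log2 fold change was 1.57. It lay above the all-gene median in 15 of 15 settings and was as low as 0.07 with 1 library left out. Klrc1, which encodes the inhibitory receptor NKG2A, was at 19.3, 36.4 and 27.0 CPM at 4 to 9 weeks and at 37.2, 121 and 225 CPM at 20 to 30 weeks. All 3 older libraries were higher, Sample_205B8 by a narrow margin over Sample_43B8 (log2 fold change 1.57 ± 1.29, SE, adjusted p = 0.790, edgeR). Klrk1, the activating receptor NKG2D, overlapped between the groups at 429, 51.0 and 82.6 CPM against 97.9, 252 and 363 CPM.

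Inhibitory receptors and genes of exhausted cells summed to 260 to 798 CPM in the younger libraries and to 609 to 939 CPM in the older ones, with overlap. Pdcd1, which encodes PD-1, had 0 to 0.538 CPM in 5 libraries and 13.8 CPM in Sample_302B8, and Lag3 had 0 to 6.19 CPM. Both stayed below the filter on low counts, as did Gzmk, Ifng, Tbx21 and Cx3cr1. Tigit was at 0.0909, 0.309 and 4.03 CPM against 19.8, 4.50 and 8.07 CPM, higher in all 3 older libraries (log2 fold change 3.06 ± 1.97, SE, adjusted p = 0.718, edgeR). Over the list, 9 of 17 tested genes were higher and 8 lower, 0 were called and the median log2 fold change was 0.08.

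**Figure D4:**
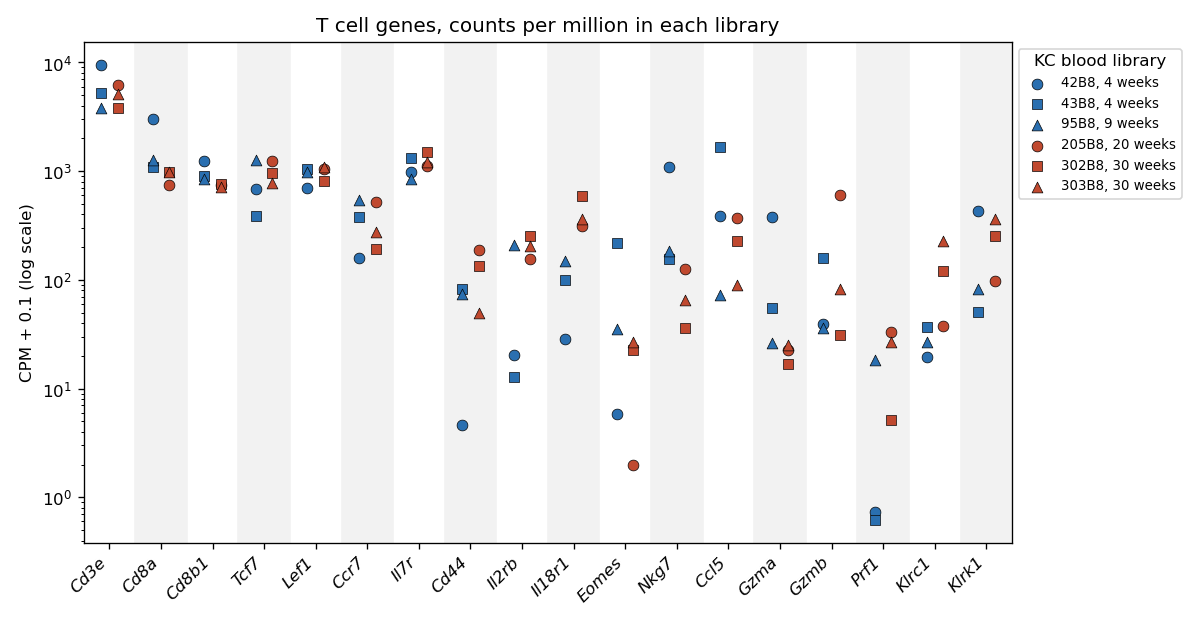
Points give CPM + 0.1 on a log axis for 18 T cell genes in each library (blue 4 to 9 weeks, red 20 to 30 weeks, 1 symbol a library). Red points lie below all blue points for Cd8a, Cd8b1, Nkg7 and Gzma and above them for Il18r1 and Klrc1, while the groups overlap for the other genes plotted.

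Genes of the T cell receptor complex and its signalling were mostly lower at 20 to 30 weeks, though none passed the test. Of 30 tested, 25 had a negative log2 fold change, 5 a positive one and 0 were called, with a median of -0.74 against -0.09 for all genes. It lay below the all-gene median in 15 of 15 settings, was -0.26 with library size alone and -0.10 within set 2. Summed over the list, Sample_42B8 and Sample_43B8 held 22952 and 18472 CPM. Sample_95B8 held 15520 CPM, below the older range of 15873 to 16434 CPM. Cd8a, the alpha chain of CD8 and part of the sort, was at 3003, 1094 and 1264 CPM in the younger libraries and at 742, 982 and 984 CPM in the older ones. These did not overlap (log2 fold change -1.76 ± 0.72, SE, adjusted p = 0.437, edgeR), and the value was -0.71 without Sample_42B8. Cd2, an adhesion receptor of T cells, was at 161, 416 and 275 CPM against 140.1, 65.0 and 118 CPM, also without overlap (log2 fold change -1.90 ± 0.93, SE, adjusted p = 0.551, edgeR).

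Cytosolic ribosomal protein genes were the most uniform list under TMM scaling. All 75 tested genes of 79 had a negative log2 fold change, 19 with an unadjusted p under 0.05, none called, and 3 had groups without overlap, against 2.47% of all genes tested with all older libraries below. The median was -1.22, from -1.62 to -0.55 with 1 library left out and -0.49 with library size alone, but it turned to 0.46 within set 2 and 0.32 with set as a term. The medians of all genes were 0.21 within set 2 and 0.24 with set as a term. Summed over the list, Sample_42B8, Sample_43B8 and Sample_95B8 held 146487, 91530.1 and 74659 CPM and Sample_205B8, Sample_302B8 and Sample_303B8 held 88018, 55026 and 79219 CPM, with Sample_95B8 below 2 of the 3 older libraries. Rps14 was at 1438, 900.5 and 317 CPM against 196, 273 and 325 CPM (log2 fold change -2.59 ± 0.80, SE, adjusted p = 0.165, edgeR).

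Respiratory chain and ATP synthase genes had a like median, -1.21, with 58 of 74 tested lower, 16 higher and 0 called. Theirs too turned positive within set 2 (0.42, against 0.21 for all genes). Ndufa5, a subunit of complex I, was at 258, 57.5 and 6.72 CPM in the younger libraries and at 0.474, 2.78 and 8.35 CPM in the older ones, where Sample_303B8 lay above Sample_95B8 (log2 fold change -5.84 ± 1.51, SE, adjusted p = 0.0748, edgeR). It passed under DESeq2 (adjusted p = 0.00451), without Sample_43B8 (0.000902) and with no filter (0.0161). In the other metabolic lists, 11 of 15 glycolysis genes, 13 of 21 of fatty acid oxidation and 13 of 23 of cholesterol and fatty acid synthesis were lower. Fdft1 was the only called gene of any T cell list. Nsdhl, another enzyme of sterol synthesis, was at 3.55, 286 and 21.3 CPM against 5.57, 33.1 and 20.7 CPM, with overlap.

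Cell cycle and DNA replication genes were lower in 21 of 30 tested, with 0 called and a median log2 fold change of -0.59. Within set 2 that median was 0.40, against 0.21 for all genes. Ube2c, which passes ubiquitin to mitotic cyclins, was at 158, 27.9 and 20.9 CPM at 4 to 9 weeks and at 1.78, 1.32 and 0.696 CPM at 20 to 30 weeks. Every younger library was higher (log2 fold change -6.61 ± 1.72, SE, adjusted p = 0.0748, edgeR), and it passed under DESeq2 (adjusted p = 0.000159). The 13-week libraries held 0.0609 to 1.04 CPM of Ube2c, as low as the older ones. Cdk2, a kinase of DNA replication, was at 28.1, 68.0 and 4.21 CPM against 0.830, 0.265 and 0.139 CPM, without overlap (log2 fold change -6.98 ± 2.05, SE, adjusted p = 0.136, edgeR), and it too passed under DESeq2 (adjusted p = 0.000276). Summed over the list, Sample_42B8 and Sample_43B8 held 2721 and 2027.5 CPM, and Sample_95B8 held 1360 CPM, inside the older range of 1234 to 1363 CPM.

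MHC class I and antigen processing genes were lower in 14 of 18 tested (median log2 fold change -0.70, 0.11 within set 2), and type I interferon response genes in 21 of 30 (-0.69, 0.46 within set 2), with 0 called in each. The median of all genes within set 2 was 0.21. The MHC list lay below the all-gene median in 15 of 15 settings. Psme1 and Psme2, which encode the proteasome activator, had log2 fold changes of -1.71 and -2.31, with adjusted p-values of 0.515 and 0.453 (edgeR). Psme1 was at 749, 758 and 436 CPM against 528, 152 and 221 CPM, so Sample_205B8 lay inside the younger range. Among cytokine receptor and Jak-Stat genes 21 of 37 were higher and 16 lower, median 0.07, and Socs1, a feedback inhibitor of that pathway, was at 205.5 CPM in Sample_43B8 and at 0.356 to 1.70 CPM in the other 5 libraries.

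**Figure D5:**
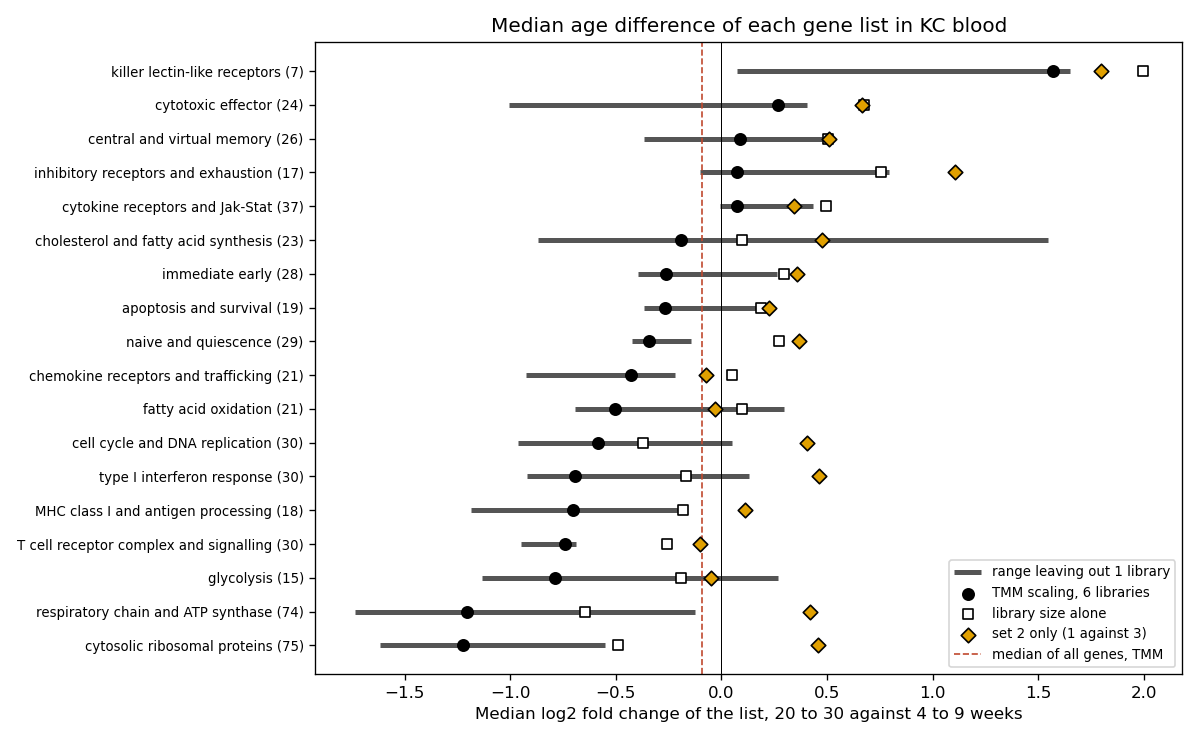
Dots give the median log2 fold change (20 to 30 against 4 to 9 weeks) of each T cell list with TMM scaling, bars the range with 1 library left out, squares library size alone and diamonds set 2 alone, with the number of genes tested in brackets. Ribosomal (-1.22) and respiratory (-1.21) lists lie lowest. They turn positive within set 2, where the median of all genes is 0.21. Killer lectin-like receptors (1.57) lie highest.

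Genes of apoptosis and survival were lower in 12 of 19 tested, with 0 called and a median log2 fold change of -0.27. Within set 2 that median was 0.23, near the 0.21 of all genes. Yet their summed level was higher in each older library, at 3524 to 5721 CPM against 3335 to 3443 CPM. Mcl1, a survival factor named here after its values were seen, was at 917, 1264 and 999.8 CPM against 1660.0, 1252 and 2941 CPM, highest in Sample_303B8. Bcl2l11, which encodes the pro-apoptotic BIM, was at 428, 294 and 147 CPM in the younger libraries and at 126, 100.2 and 122 CPM in the older ones, without overlap (log2 fold change -2.08 ± 0.91, SE, adjusted p = 0.478, edgeR). Bcl2, the survival factor that BIM opposes, overlapped between the groups (log2 fold change -0.40 ± 0.74, SE, adjusted p = 0.924, edgeR).

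Markers of other cells were present at low levels. Platelet genes summed to 124 to 258 CPM at 4 to 9 weeks and to 72.2 to 336 CPM at 20 to 30 weeks, erythroid genes to 128 to 415 and 54.8 to 199 CPM, and B cell genes to 90.4 to 335 and 86.8 to 169 CPM. NK cell genes, a list that shares Gzma and Eomes with cytotoxic T cells, summed to 127 to 416 CPM against 96.4 to 169 CPM, and monocyte genes to 82.3 to 807 CPM, highest in Sample_95B8, against 240 to 353 CPM. Plasma cell genes summed to 23.6 to 39.0 CPM at 4 to 9 weeks and to 127, 325 and 16.0 CPM in Sample_205B8, Sample_302B8 and Sample_303B8, with both tested members higher (median log2 fold change 2.57) and 0 called. Of the 325 CPM in Sample_302B8, 272 CPM came from Prdm1. Genes of pancreatic acinar cells summed to 88.9 and 94.97 CPM in Sample_42B8 and Sample_43B8, to 0.627 CPM in Sample_95B8 and to 0.237 to 0.397 CPM in the older libraries. This split went with trace set rather than age. The other blood libraries of set 1, Sample_131B8 of 13 weeks and the WT library of 30 weeks, held 87.5 and 94.9 CPM. In set 2, Sample_132B8 and Sample_133B8 of 13 weeks held 1.58 and 0.348 CPM. Of the list genes of these cells, 0 were called, and their part in the results was not tested.

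In the pancreas of KC mice the same ages gave 0 called genes of 8509 tested in either direction, with 847 at an unadjusted p under 0.05 (5 libraries of 4 to 9 weeks, 4 of 20 to 30 weeks, edgeR). The difference between the blood and the pancreas age effect, tested as an interaction in edgeR, also gave 0 called of 10671, with 1241 at an unadjusted p under 0.05. The smallest adjusted p, 0.116, belonged to Adam22, whose log2 fold change was -8.00 in blood and 4.37 ± 1.66 (SE) in pancreas. Of the 8 genes called in blood, Rpn1, Fdft1 and Lmf2 also had negative pancreas values, of -0.91, -1.54 and -5.53, and the other 5 had positive ones. None of the 8 is therefore shown to differ between the tissues, nor to differ in pancreas.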

How the data were processed

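Reads had been aligned and counted per gene symbol by the authors, who deposited raw counts with no normalization. TopHat, SAMtools, HTSeq, DESeq and the build mm10 are named in the submitters' processing notes, with no version. Strand use is not given in the sources used here, so overlapping and antisense genes cannot be told apart, and ribosomal protein genes share reads with pseudogenes. The 5 tallies of reads given to no gene were left out, and in the 6 libraries 14.1% to 26.5% of tallied reads had been assigned to genes.

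Groups came from the tissue and age labels. Genes were tested with edgeR 4.0.16 (R 4.3.3) by its robust quasi-likelihood F-test, two-sided, after filterByExpr (minimum count 10) and TMM, called at a Benjamini-Hochberg adjusted p under 0.05 over all genes tested. The SE of a log2 fold change is its size over the square root of F. An exact permutation test of 3 against 3 cannot go below p = 0.1. The fits were tried on simulated counts, and the pass mark was set at a smaller spread between replicates than these libraries have. That pass mark therefore does not say how many true differences would be found or missed here. The interaction used 6 blood and 9 pancreas libraries. Genes named were those called, the up to 8 leading genes per direction without overlap and with at least 10 CPM in each library of the higher group, a panel of T cell genes and up to 2 genes per list by smallest p. Klrk1 was added after its values were seen. Members and lists were chosen with earlier results of these data known. One gene of the panel is not reported here by name. Positions came from GENCODE vM21, in which 82 of 83 named genes matched. Trace genes reached 100 CPM in 1 library and stayed at or below 5% of that level in the rest. Alternatives changed the scaling, the filter, the tool (DESeq2 1.42.0, limma 3.58.1), the libraries or the terms. Library size alone and the Xist class (1000 CPM or more) were chosen after seeing the data.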

Additional observations from a re-analysis of the deposited data

How the results depend on the processing

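The count of called genes (8) rested on the settings. It was 11 under RLE scaling, 12 with library size alone, 8 without Rn45s and Lars2 and 8 with the 13-week libraries in the fit, of which 3 were shared with the original 8. No filter on low counts gave 92 (86 lower, 6 higher), a mean of at least 10 CPM gave 5, and DESeq2 gave 211 (155 lower, 56 higher, with 4257 adjusted p-values not given). The count was 0 with limma-voom and quality weights, with age as a number, with trace set as a term, within set 2 and with Xist class as a term. Set 2 alone leaves 1 younger library, assumed to vary like the older ones, so its 0 carries no weight. With 1 library left out the count ran from 0 to 150: it was 0 without Sample_95B8, 67 without Sample_42B8, 150 without Sample_43B8, and 21, 27 and 16 without Sample_205B8, Sample_302B8 and Sample_303B8. Leaving out libraries also changes which genes pass the filter, and the cause of these moves was not tested. All 8 genes kept a negative sign in each setting that gave them a value, and Khk and Adam22 passed in 10 of theirs, H2afj in 4. DESeq2 gave no value for Khk, Lmf2 and H2afj. The settings reuse the libraries in which the genes were called, so a kept sign is not separate support. RLE moved the median of all genes from -0.09 to -0.25, and library size alone moved it to 0.28. It was 0.14 with voom, 0.24 with the set term and 0.21 within set 2.

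For the interaction with pancreas the count was 0 under RLE scaling, the stricter filter and the set term, and 0 to 7 with 1 blood library left out, the 7 without Sample_95B8. With the title number as a replicate block over the libraries whose number occurs in both tissues it was 0 (432 genes at an unadjusted p under 0.05). The labels do not say that a shared number marks a shared animal, so this pairing is not part of the design. The pancreas count stayed 0 under RLE scaling.

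With 3 libraries a group, the standard errors of the log2 fold changes of the genes named ran from 0.66 to 2.25. Differences of that size, and ones well above it, could be missed. The smallest log2 fold change among the called genes was -5.40 (Rpn1), and values of 6.80 (1700012D14Rik) and -6.98 (S100a4) did not pass.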
